A study of Mus musculus with 2 samples.

Results

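The microRNA genes carried by Sfmbt2 on mouse chromosome 2 were measured by small RNA sequencing of gastrocnemius, the superficial calf muscle. The group was taken as every row of the deposited count tables whose GENCODE gene lies on the plus strand within Sfmbt2 (mm10, chromosome 2, 10370510 to 10595253). This gave 119 of 2202 annotated microRNA genes, with or without reads. The donors were females of 14 days of age, of B6CASTF1/J, a hybrid strain of C57BL/6J and CAST/EiJ, so every cell carries a genome copy of each parent strain. The labels give 1 group with 2 biological replicates, no treatment and no other tissue. The biosample behind replicate 1 is named for 3 females and that behind replicate 2 for 1 female, while a single donor identifier is given for both. Differences between the replicates may therefore be technical or come from pooling, the animals or the tissue taken, and these cannot be told apart.

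Sfmbt2 encodes a Polycomb-group protein, a class of proteins that keep genes silent through chromatin. In the mouse placenta and its precursors the gene is read from the paternal chromosome. An intron of it carries one of the large microRNA clusters of the mouse genome, built by tandem duplication and needed for a normal placenta. A microRNA is cut from a hairpin, and bases 2 to 8 of the mature strand, the seed, pair with target transcripts, so copies with the same seed can act on the same targets. The cluster holds the families Mir297, Mir466, Mir467 and Mir669. Of these, miR-669a has been described as a repressor of the myogenic factor MyoD in heart progenitors, miR-467a as a repressor of the antiangiogenic protein thrombospondin-1, and miR-466l as a stabiliser of the interleukin-10 transcript in macrophages.

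The families are written in short repeats, and the mature strands of relatives outside Sfmbt2 are shown here to make the repeats visible, from RefSeq (GRCm38.p6), 5′ to 3′, with the seed in capitals.
miR-466k: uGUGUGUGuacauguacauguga
miR-466j: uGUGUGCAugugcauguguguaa
miR-466i-3p: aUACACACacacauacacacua
miR-466q: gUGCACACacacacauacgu
miR-467g: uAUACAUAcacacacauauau
miR-467f: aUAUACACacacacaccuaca
miR-467h: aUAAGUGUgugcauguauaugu
miR-669n: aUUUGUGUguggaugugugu
All 8 seeds differ. The letters of the miR-467g seed occur in 78 of the 119 Sfmbt2 hairpins (65.5%) and in 6.49% of all 2202 annotated hairpins. Those of miR-466j occur in 52.1% of the cluster against 4.81% of all hairpins, those of miR-466i-3p in 50.4% against 8.17%, and those of miR-466k in 42.0% against 9.54%. Those of miR-466q occur in 25.2% against 2.63%, those of miR-467f in 22.7% against 5.13%, and those of miR-669n in 8.40% against 2.59%. The miR-467h seed is the rarest, with 1 hairpin in the cluster (0.840% against 0.636%). Each search was on the hairpin's own strand and at any position, so a match is not a mature strand. No whole mature strand of these 8 occurs in a hairpin of the cluster.

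The promoter shown next belongs to the start from which an annotated full-length Sfmbt2 transcript runs across the cluster, since an intronic hairpin is cut from the host transcript. It covers the 250 bases before that start (chr2:10372186-10372435, plus strand, RefSeq, GRCm38.p6), with the letters GGGCGG, the GC box, in capitals.
Sfmbt2 promoter: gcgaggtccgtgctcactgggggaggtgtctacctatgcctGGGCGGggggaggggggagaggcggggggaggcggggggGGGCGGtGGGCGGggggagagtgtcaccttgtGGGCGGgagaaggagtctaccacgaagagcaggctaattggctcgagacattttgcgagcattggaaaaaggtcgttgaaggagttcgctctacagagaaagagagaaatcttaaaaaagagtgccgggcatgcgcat
The box was searched on both strands, as GGGCGG and CCGCCC, and occurred 4 times, without overlap. A box is present in 32.7% of 32851 promoter windows of this length, and 4 or more in 4.09%. The window holds 15 CpG dinucleotides, against a median of 6.0 over those windows. Host transcription was not measured in these libraries.

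All 119 hairpins lie within intron 10 of the 23-exon Sfmbt2 transcripts, between 10461473 and 10523944 (62.5 kb). From Gm22072 at 10465287 to Mir669h, which ends at 10518279, they span 53.0 kb, with a median of 294.0 bp from the start of a hairpin to the start of the next. No other annotated gene overlaps them. By symbol, 29 rows belong to Mir669, 23 to Mir466, 14 to Mir467 and 5 to Mir297. The other 48 carry provisional Gm names, and the closest named hairpin was a Mir669 for 44 of them (68.8% to 100% of aligned positions identical, median 95.3%). The middle of the cluster is a repeated unit. Its 10 Mir467a copies start a median of 2462 bp apart (2413 to 4880 bp), with Mir466, Mir669 and Gm rows between them.

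**Figure D1:**
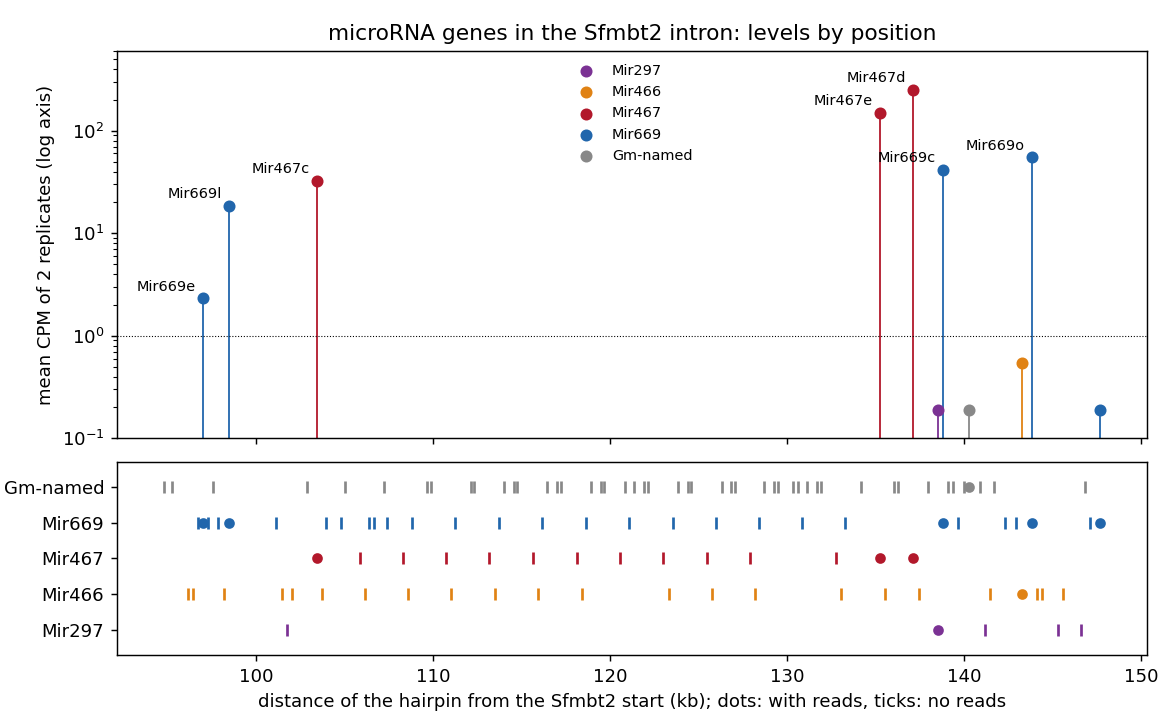
Upper panel: mean CPM of 2 replicates (log axis) of the 11 members with reads against distance from the Sfmbt2 start in kb, coloured by family, with the dotted line at 1 CPM. Lower panel: all 119 members by family, dots with reads and ticks without. The longest run of members without reads, 72 over 30.6 kb, lies in the middle.

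Replicate 1 had 2672454 reads on microRNA genes and replicate 2 had 4292012, so 1 read was worth 0.374 and 0.233 CPM, the read count scaled to the same total in each library. In replicates 1 and 2 in that order, 8 of the 8 listed skeletal muscle microRNAs had reads, with summed levels of 96243 and 85727 CPM, most of it Mir206. The endothelial marker Mir126a had 118724 and 119268 CPM, the 4 leukocyte markers 1185 and 853 CPM in sum, the 2 red cell markers 437 and 185 CPM, and the hepatocyte marker Mir122 229 and 14.2 CPM. The 3 Mir124a genes of neurons had 0 assigned reads, and 4 of 8 listed pluripotent cell genes had reads, 1.12 and 2.10 CPM in sum. Reads that align to several genes may be missing from these values, as set out below. Numbered copies such as those of Mir124a, Mir133a and Mir1a may share such reads, which was not checked. The 0 for Mir124a therefore sets no limit on neurons.

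The cluster gave few assigned reads, and nearly all came from 7 hairpins. It had 1300 reads in replicate 1 and 2669 in replicate 2, or 0.0486% (exact 95% binomial interval 0.0460 to 0.0514) and 0.0622% (0.0598 to 0.0646) of the reads on microRNA genes. The mean was 0.0554% ± 0.00957 (SD, n = 2). At least 1 read in either replicate was found for 11 members (9.24%), against 30.0% of all 2202 genes. Both replicates reached 1 CPM for 7 members (5.88%), against 16.7% of the 2202. Those 7 held 99.7% of the cluster's reads in replicate 1 and 99.9% in replicate 2. These intervals and the limits for genes without reads cover counting error only. In whole tissue, fewer cells that make a microRNA and less of it per cell cannot be told apart. The cluster also differs from the other genes in shared sequence. No stretch of mature length of its own was found in 54 of the 119 members (45.4%), as set out below. Outside the cluster this held for 11.7% of microRNA genes. The comparison with all 2202 genes and the family shares below therefore describe assigned reads only. The part of shared sequence in them was not tested.

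The Mir467 family held 77.5% (75.2 to 79.8) of the cluster's reads in replicate 1 and 79.3% (77.7 to 80.8) in replicate 2. Its reads came from 3 of its 14 members. Mir467d, at 10507630 to 10507714, had 591 reads in replicate 1 and 1218 in replicate 2, or 221 and 284 CPM (252 ± 44.3). It ranked 127th of the 2202 genes. Mir467e, at 10505721 to 10505807 and thus 1909 bp upstream of Mir467d, had 354 and 719 reads, or 132 and 168 CPM (150 ± 24.8). Mir467d and Mir467e together held 72.7% of the cluster's reads in replicate 1 and 72.6% in replicate 2. Between them lie Mir466p, Gm22051 and Gm22678, which had no reads. Mir467c, at 10473931 to 10474027 near the other end of the cluster, had 63 and 179 reads, or 23.6 and 41.7 CPM (32.6 ± 12.8). In each of these 3 genes replicate 2 was the higher. The 11 Mir467 rows without reads were the 10 Mir467a copies and Mir467b.

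The Mir669 family held 22.2% (20.0 to 24.6) and 20.6% (19.1 to 22.2) of the cluster's reads, from 5 of 29 members. Mir669o, at 10514300 to 10514395, had 129 and 267 reads, or 48.3 and 62.2 CPM (55.2 ± 9.86). Mir669c, at 10509296 to 10509404, had 111 and 180 reads, or 41.5 and 41.9 CPM (41.7 ± 0.285). Mir669c was the member whose replicates lay closest in CPM among the 7. Mir669l, at 10468971 to 10469068, had 43 and 91 reads, or 16.1 and 21.2 CPM (18.6 ± 3.61). Mir669e, at 10467495 to 10467613, had 5 and 12 reads, or 1.87 and 2.80 CPM (2.33 ± 0.654), and lay just above the limit of 1 CPM. Mir669h, the last hairpin of the cluster, had 1 read in replicate 1 and 0 in replicate 2.

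Mir466 and Mir297 were at the edge of detection. Of the 23 Mir466 members only Mir466n had reads, 1 and 3, or 0.374 and 0.699 CPM, just below the limit of 1 CPM. Of the 5 Mir297 members Mir297c had 1 read in replicate 1 and 0 in replicate 2. Among the 48 Gm rows Gm22925 had the same. With 3 reads as the limit, 0 reads allow up to 1.12 CPM and 0.699 CPM in replicates 1 and 2, and this applies to reads assigned to that gene alone. On the strand opposite the cluster there was 1 read in replicate 1, at Mir467b, and 0 in replicate 2.

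**Figure D2:**
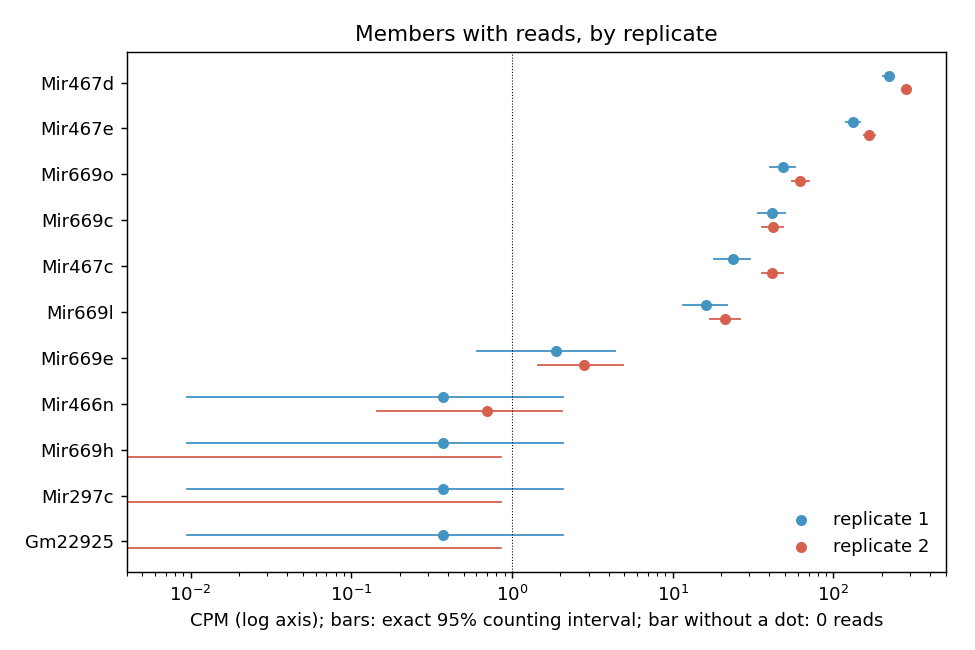
CPM (log axis) of the 11 members with reads in replicate 1 (blue) and replicate 2 (red), with exact 95% counting intervals and the dotted line at 1 CPM. Mir467d and Mir467e stand above the other members in both replicates, and the 4 lowest members rest on 1 to 3 reads in a library.

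The order of the 7 expressed members was the same in both replicates. A small RNA read is a whole microRNA rather than a fragment, so levels were compared as reads per gene without a correction for length. Mir467d exceeded Mir467e 1.67-fold (95% counting interval 1.46 to 1.91) in replicate 1 and 1.69-fold (1.54 to 1.86) in replicate 2. Mir467e exceeded Mir669o 2.74-fold (2.24 to 3.38) and 2.69-fold (2.34 to 3.11). The neighbours in the middle of the order lay closer together. Mir669o and Mir669c could not be separated in replicate 1 (1.16-fold, 0.895 to 1.51) and differed 1.48-fold (1.22 to 1.80) in replicate 2. Mir669c exceeded Mir467c 1.76-fold (1.28 to 2.44) in replicate 1 but not in replicate 2 (1.01-fold, 0.813 to 1.24), and their means differed by less than the sum of their SDs. The same held for the means of Mir467c and Mir669l, which were 1.47-fold (0.979 to 2.21) and 1.97-fold (1.52 to 2.56) apart. Mir669l exceeded Mir669e 8.60-fold (3.41 to 27.8) and 7.58-fold (4.14 to 15.2).

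The summed level of the cluster in replicate 2 was 1.28 times that in replicate 1 (95% counting interval 1.20 to 1.37). The mean reached 10 CPM in 6 members, and 6 of them were higher in replicate 2, against 53.8% of the 260 genes at that level. The interval lay above 1 for 4 of the 6, against 33.1% of the 260 genes. Their median ratio was 1.29 and that of all 260 genes 1.03. The 4 with an interval above 1 were Mir467c at 1.77-fold (1.32 to 2.40), Mir669o at 1.29-fold (1.04 to 1.60), Mir467d at 1.28-fold (1.16 to 1.42) and Mir467e at 1.26-fold (1.11 to 1.44). The interval included 1 for Mir669l (1.32-fold, 0.907 to 1.94) and Mir669c (1.01-fold, 0.793 to 1.29). With the scaling factors of edgeR (TMM) or DESeq2 the ratio of Mir669c was 0.990 and 0.997, so its direction turned and 5 of 6 were higher. Of the listed markers with reads in both replicates, the hepatocyte gene Mir122 lay farthest apart by ratio, at 229 CPM in replicate 1 and 14.2 CPM in replicate 2. Lower in replicate 2 were also 2 of 2 red cell markers and 3 of 4 leukocyte markers, with Mir223 the exception (120 and 124 CPM). The summed muscle level was lower there mainly through Mir206, while 4 of the 8 muscle genes were higher, Mir499 (213 and 280 CPM), Mir133b, Mir1a-1 and Mir133a-2. The part of these markers in the difference was not tested. With 1 library on each side these ratios compare 2 libraries, and no p-value was computed.

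**Figure D3:**
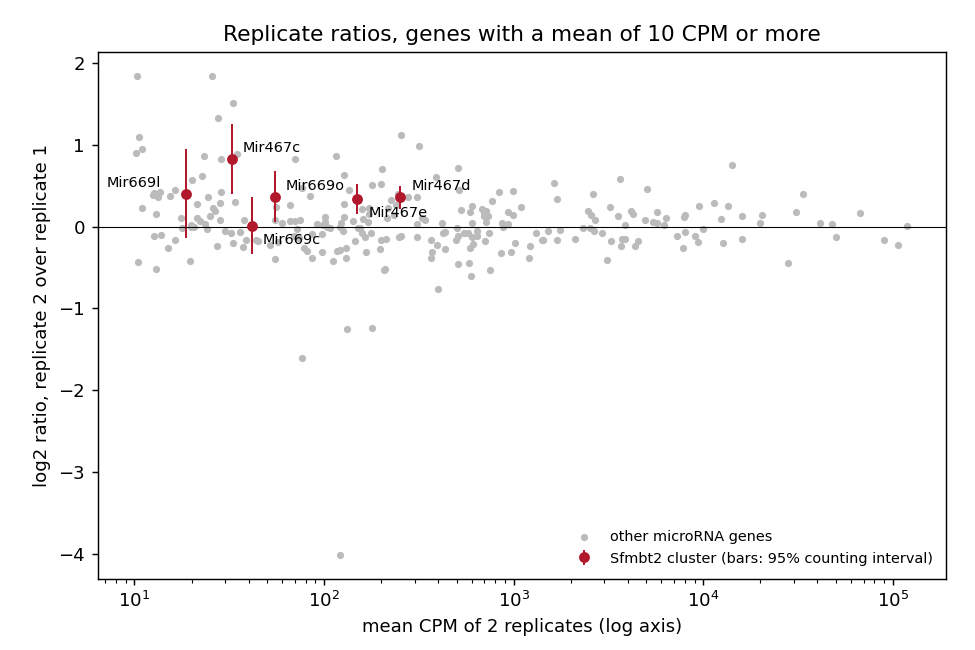
Log2 ratio of replicate 2 over replicate 1 against mean CPM (log axis) for the 260 genes whose mean reached 10 CPM, with the 6 cluster members in red and their 95% counting intervals. The 6 lie at or above 0 by total counts, within the spread of the grey points.

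How much sequence the hairpins share was measured next, because a read that aligns to several places is kept in a separate total and enters no gene, if the tables follow the layout their summary rows show. That total was 4219456 reads (52.7% of the library) in replicate 1 and 6352784 (52.4%) in replicate 2. It covers the whole genome, and how much of it came from this cluster was not analysed here. The 119 hairpins have 88 distinct sequences, and 47 of them are identical to at least 1 other member. In the largest identical set are 9 of the 12 Mir669a copies, and the 10 Mir467a copies have 3 distinct sequences. A stretch of 22 nt, the length of a typical mature strand, was shared with another member by 116 of the 119 and with an annotated hairpin outside the cluster by 28.

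Every member with reads had some sequence of its own, and the members without any had no reads. If reads that align to several places enter no gene, a 22-nt read from a hairpin without its own sequence cannot be assigned. The lack of reads there is then fixed by the counting and gives no level. Each hairpin was cut into all its windows of 22 nt, and a window was called unique if no other annotated hairpin held it on either strand. No unique window was found in 54 of the 119 members (45.4%), against 243 of the 2083 microRNA genes outside the cluster (11.7%). All 11 members with reads had unique windows, from 27.3% to 96.9% of their windows with a median of 59.1%. The 108 without reads were divided evenly, 54 with and 54 without a unique window, at a median of 0.943% unique. All 10 Mir467a copies and 11 of 12 Mir669a copies had none. Unique sequence did not always come with reads, since 20 members without reads had at least 50% unique windows, Mir466g and Gm22239 with 100%. The windows were compared with annotated hairpins only, not with the genome, and their part in the zero counts was not tested. They use the mm10 sequence, and the CAST/EiJ copy of the cluster was not examined.

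**Figure D4:**
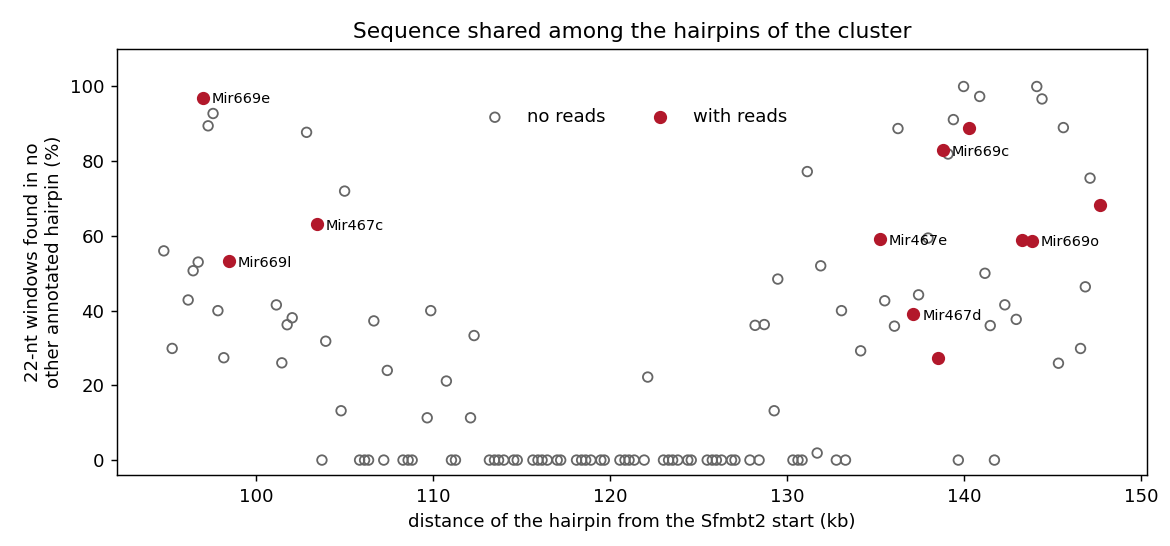
Percent of a hairpin's 22-nt windows found in no other annotated hairpin, against distance from the Sfmbt2 start in kb, for members with reads (filled) and without (open). All 11 filled points lie at 27.3% or more, and most open points at 0 fall in the middle of the cluster.

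Position and sequence moved together along the intron. The members with reads lay toward both ends, 3 among the first 17 hairpins and 8 among the last 30. The 72 between them were taken as the longest run of members without reads, so the 0 there is set by that choice. That middle run, from Mir466b-1 at 10474219 to Gm26398, which ends at 10504773, contains 52 of the 54 members with no unique window. It also contains 20 members with unique windows and no reads, by exact matching. Allowing 1 mismatch, some of these had no unique window left, among them Mir669k and Mir467b. Over the whole cluster, members without reads that had a unique window then fell from 54 to 39. Of the members at the ends, none of the first 17 and 2 of the last 30 had no unique window.

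Within the expressed members the unique part differed from gene to gene. Positions are counted from 1 at the hairpin's 5′ end. A base in a unique window can also lie in a shared stretch, so the ranges do not mark bases found in 1 hairpin only. In Mir467d, with the lowest unique share of the 7 (25 of 64 windows, 39.1%), the unique windows covered bases 1 to 40 and 59 to 85. Mir467d shares up to 34 nt with Mir467e and with Mir467c, and 55 nt with Mir467a-1, which had no reads. Its longest shared stretch was 60 nt, with Gm25022, also without reads, and it overlaps both ranges. Mir467d and Mir467e were identical at 92.0% of aligned positions, and Mir467d and Mir467c at 83.5%. In Mir467e the unique windows covered bases 1 to 41 and 48 to 87, and in Mir669l bases 1 to 41 and 57 to 98. In Mir669c 73 of 88 windows were unique (83.0%), in 1 block from base 16 to the 3′ end at base 109. Mir669e was unique in 95 of 98 windows (96.9%). Mir669o resembled the unread Mir669a-1 at 92.8% of aligned positions and shared 38 nt with it. A gene's count pools both arms of the hairpin, so which mature strand gave the reads cannot be told apart.

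Base composition and folding did not separate members with reads from those without. The GC content of the 11 with reads was 31.6% to 42.9% (median 39.2%) and that of the 108 without 29.0% to 43.4% (median 37.3%), while the 2083 other microRNA hairpins had a median of 51.7%. The predicted folding energy per base had a median of -0.378 kcal/mol with reads and -0.383 kcal/mol without. Hairpin lengths were 85 to 125 nt with reads and 73 to 127 nt without, so the ranges overlapped for all 3 measures.

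The same families also have 10 annotated genes elsewhere in the genome. They are Mir466q, Mir466k, Mir466j, Mir466i, Mir466f-4, Mir467f, Mir467g, Mir467h, Mir669n and Mir297-1. A read in either replicate was found for 0 of the 10, against 30.0% of all 2202 genes. Each of them holds unique windows, from 22 of 55 in Mir297-1 to 33 of 33 in Mir669n. Such windows do not show that the mature strand aligns to 1 place, and reads that align to several places may be missing here too. In these libraries every read assigned to Mir297, Mir466, Mir467 or Mir669 by name therefore lay in the Sfmbt2 intron, within the limits of 1.12 and 0.699 CPM for a gene with 0 reads.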

How the data were processed

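Small RNA libraries, selected for RNA under 30 nt per the labels, were measured in 2 samples of 1 group. The authors deposited raw read counts per microRNA gene, made on mm10 with GENCODE M21, per the accompanying file descriptions; the sources used here name neither an aligner nor a counter. Of the 3 count columns, taken from their order and values as unstranded, same-strand and opposite-strand, the same-strand column was used. The 4 rows naming no gene (66.6% and 64.6% of reads) were left out. All 2202 identifiers matched GENCODE M21, which gave symbols, positions and hairpins. CPM used each library's total over gene rows. Intervals are exact (Clopper-Pearson, 95%, scipy 1.17.1), and those of ratios come from the binomial of 1 library's reads in the sum. The interval script was tested on simulated counts that held counting error only, so that test does not cover variation between libraries.

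Hairpins were aligned globally with biopython 1.88 and folded with RNAfold 2.7.2. Of RefSeq mature entries, 0 of 119 members and 8 of the 10 genes outside matched, so shared stretches and windows of 22 nt, with 18 nt and 1 mismatch as alternatives, stood in for matches of mature strands in the genome. The measure by windows was chosen after seeing the data. Named genes were the members at a mean of 1 CPM, the highest of each family, those nearest below 1 CPM, and the copies that share most sequence. Members and lists were chosen with earlier results of these data known. Other settings covered the strand column, totals, read and CPM limits, TMM (edgeR 4.0.16), DESeq2 1.42.0 size factors and each replicate alone.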

Additional observations from a re-analysis of the deposited data

How the results depend on the processing

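Of 63 values under other settings, 53 stayed within the replicate SD, the counting interval or 1.5 times the main count, and 10 moved. For the shares, which were scored by the SD, a value from 1 replicate alone always lies within the SD of the 2. Those values stayed by construction and are no check. Reversals of direction were not scored. The mean share of the cluster was 0.0745% with reads counted without regard to strand, 0.0191% of all reads of the library, and 0.143% without the 10 most abundant genes in the total; each of these changes the total by construction. In the unstranded column 6 of the 7 expressed members moved upward by more than their SD for the same reason, all but Mir467c. That column, TMM and DESeq2 factors each left 5 of 6 members higher in replicate 2, Mir669c being the exception. Allowing 1 mismatch, 0 in place of 2 members without reads had all windows unique, and 39 in place of 54 had any unique window. Without 1 replicate the cluster share ranged from 0.0486% to 0.0622% and members with reads from 8 to 11, and 8 members had at least 3 reads in a library. No paired analysis was possible because there is 1 group. The planned match of mature strands to the genome was not run. For a gene without reads, depth limits the reads assigned to that gene alone to 1.12 and 0.699 CPM in replicates 1 and 2. Reads that align to several places lie outside this limit.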
